A study of Mus musculus with 6 samples.

Results

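The 3 control tumours of a study of liver cancer in mice were described on their own, gene by gene and list by list. They were the libraries labelled Cre_PD1 replicates 1, 2 and 3, chosen by that label, and they made up 3 of the 6 samples of the series. Each held polyadenylated RNA of a RIL-175/PD-1R liver tumour from a LysM-Cre mouse that had received anti-PD-1. RIL-175 is a mouse liver cancer line made from liver cells lacking p53 and expressing an activated Hras, and what PD-1R stands for was not given in the sources used here. LysM-Cre places the Cre recombinase in the lysozyme gene Lyz2, so that Cre is made in macrophages, monocytes and neutrophils; these mice were the controls for Trem2-MKO mice, whose tumours are not described here. Anti-PD-1 blocks PD-1, a receptor that restrains T cells. All 3 tumours were treated, so no value describes an untreated tumour, and age, sex, dose and time were not given. The design text counts 3 mice of this genotype, and the labels name no batch. Every set of 3 values below is in the order of replicates 1, 2 and 3.

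A bulk tumour library mixes the RNA of cancer cells with that of liver cells, blood vessels, fibroblasts and leukocytes. Hepatocytes make most plasma proteins and carry out urea synthesis and drug metabolism, while cancers of hepatocyte or progenitor origin often lose part of that programme and gain keratins and mesenchymal proteins. Kupffer cells are the resident macrophages of the liver sinusoids, and other tumour macrophages derive from blood monocytes. In bulk RNA, fewer cells of a type and less RNA per cell cannot be told apart, so the lists below measure transcripts and not cells.

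The libraries held 30981002, 34264910 and 26747236 recovered reads, so that 1 read over 1 kb of exons was worth 0.0984, 0.0833 and 0.114 TPM (a level per length, scaled so that each library sums to 1000000). Orders of tumours were also checked after median-of-ratios scaling, which levels the typical gene, and counts that differ are given beside the main ones. A gene is said to reach or exceed 1 TPM by its mean unless each tumour is named. Of 55291 genes listed, 21261 were above 0 in all 3 tumours and 14880 reached 1 TPM in all 3. The 122 genes with a mean of at least 1000 TPM took 33.7% of all transcripts, the 1470 genes from 100 to 1000 TPM took 35.4%, and the 8131 genes from 10 to 100 TPM took 27.9%. The 11961 genes above 0 with a mean under 1 TPM took 0.312%. The 10 most abundant genes took 10.05% ± 0.498 of the TPM (SD, n = 3) and the 100 most abundant 31.1% ± 1.07. Counted in reads, which favour long genes, the top 100 took 19.5% ± 1.03 of the total, and 71 genes were in both sets. The median exon length was 1734 bases in the top 100 by TPM against 3557 bases in the 16534 genes with a mean of at least 1 TPM. Of the 100 most abundant genes of each tumour, 75 were shared by all 3 and 121 appeared in at least 1.

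The most abundant transcripts included those of secreted liver proteins, keratins, antigen presentation, translation and mitochondrial respiration. Spp1 (chromosome 5, 104435118 to 104441050 in GRCm38), the gene of the secreted glycoprotein osteopontin, was at 11070.5, 9801 and 10716 TPM and had rank 4, ahead of every other gene of a secreted protein. Its 3 values lay close together, with a mean of 10529 ± 655 TPM (SD, n = 3). Eef1a1, an elongation factor of translation, was at 13719.7, 12054 and 10360.2 TPM and had the most reads of any gene. mt-Co1, a mitochondrial subunit of cytochrome c oxidase, was at 10808, 14132 and 14877 TPM. The translation factor was highest and the respiratory subunit lowest in replicate 1. B2m, the light chain of class I histocompatibility molecules, was at 8016, 10016 and 9512 TPM and had rank 5. Alb (chromosome 5, 90460897 to 90476602), the gene of the plasma protein albumin, was at 5286, 8792 and 8944 TPM and had rank 7. Apoe, an apolipoprotein made by hepatocytes and macrophages, was at 4065, 7531 and 8509.7 TPM. Replicate 1 was the lowest tumour for B2m, Alb and Apoe.

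The gene ranked first by TPM was Gm23935 (chromosome 16, 11144125 to 11144181), a predicted microRNA gene of 57 bases listed at 22301, 23376 and 18435 TPM. A value per length is very large on so short a gene: it had 12924, 16001 and 9210 recovered reads and ranked 306 by reads. It alone took 2.14% of the mean TPM and 0.0409% of the reads. The other 24 of the 25 most abundant genes encode proteins, among them the heme scavenger hemopexin (Hpx, 3873, 5831 and 4417 TPM), the hemoglobin-binding haptoglobin (Hp, 3272, 5124 and 3741 TPM), the actin-binding thymosins Tmsb4x and Tmsb10, the calcium-binding S100a11 (4337, 3866 and 4066 TPM) and the galactose-binding lectin Lgals1 (3613, 3343 and 3254 TPM). S100a11 and Lgals1 differed little between tumours, whereas haptoglobin and hemopexin were highest in replicate 2.

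**Figure D1:**
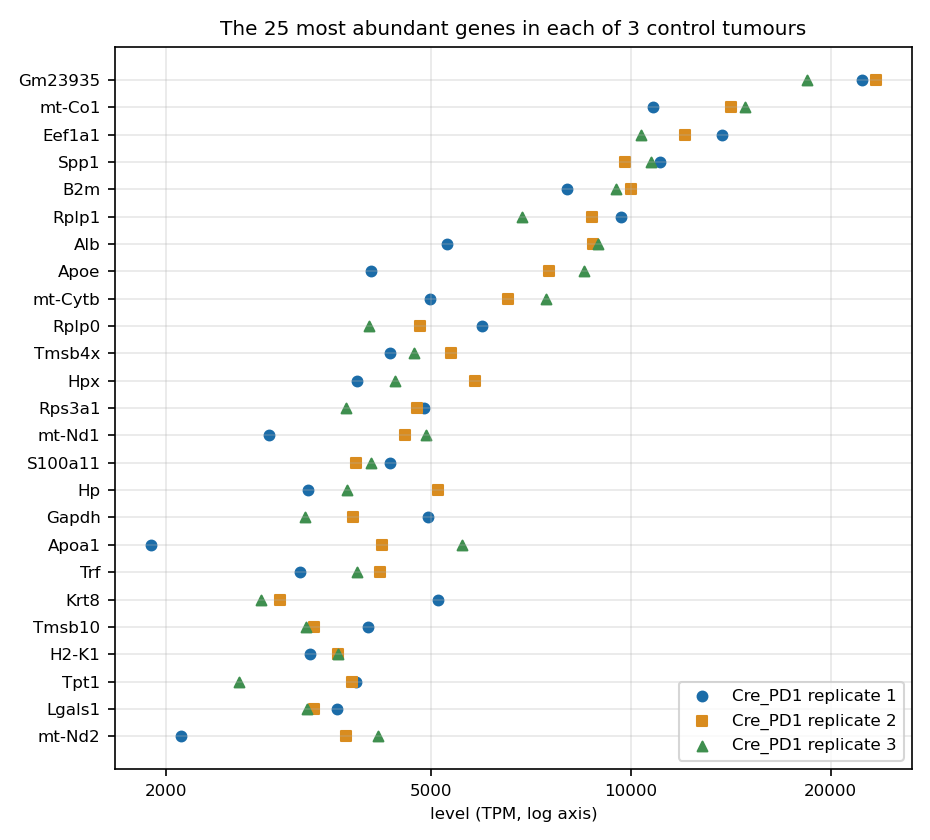
Level of the 25 most abundant genes in TPM (log axis) in each of the 3 control tumours, 1 point per tumour, ordered by mean level. Alb, Apoe, Apoa1 and the mitochondrially encoded genes are lowest in replicate 1, whereas Krt8, Gapdh and Eef1a1 are highest there.

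Genes of hepatocytes, which check the label of liver tissue, were abundant in all 3 tumours and differed between them. All 28 genes of the hepatocyte list reached 1 TPM, with a median of 819 TPM, and together they made up 2.41%, 4.53% and 4.84% of the transcripts. Each of the 28 was lowest in replicate 1, against 35.1% of all 16534 genes with a mean of at least 1 TPM. In 17 of 28 replicate 1 lay at least 2 times below both others (on TPM + 1, as for all such ratios), against 3.96% of all genes. The ratio of the highest to the lowest tumour reached 2 in 18 of 28 hepatocyte genes, against 13.6% of all genes. The median standard deviation of log2(TPM + 1) was 0.79 over the list and 0.22 over all genes. The order of tumours over all genes is the background for each such count below. Replicate 1 was highest in 35.3% of all genes, replicate 2 in 17.7% and replicate 3 in 47.0%, and replicate 2 was lowest in 45.2% and replicate 3 in 19.7%. After median-of-ratios scaling these shares were closer together: 38.8%, 30.7% and 30.5% of genes were highest in replicates 1, 2 and 3. The shares lowest in them were then 34.8%, 31.6% and 33.5%, the background for the rescaled counts below.

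The size of that spread was not the same for all hepatocyte genes. Among 16 genes of secreted proteins, the highest tumour exceeded the lowest by a median of 1.83 times (range 1.32 to 3.98). Among 12 genes of enzymes and other proteins that stay in the cell the median was 4.62 times (range 1.60 to 10.9). The split into secreted and intracellular proteins is a description chosen with these values known. Of the secreted group, the iron carrier transferrin (Trf) was at 3186, 4204 and 3873 TPM and the fetuin Ahsg at 1925, 2659 and 2646 TPM. The apolipoproteins spread further, with Apoa1, the main protein of high-density lipoprotein, at 1900.5, 4221 and 5581 TPM and Apoa2 at 909, 2997 and 3538 TPM. Mup20, a urinary pheromone carrier with many near-identical relatives, was at 1184, 2849 and 4707 TPM. Within the cell, Fabp1, the liver fatty acid binding protein, was at 212, 1329 and 2072 TPM. The drug-metabolising cytochrome Cyp2e1 was at 157, 1413 and 1235 TPM, and the tyrosine-degrading dioxygenase Hpd at 23.9, 268 and 272 TPM. In each of these, replicates 2 and 3 lay well above replicate 1. Of the urea cycle, Cps1, the entry enzyme, was at 42.1, 208 and 197 TPM and Ass1, the argininosuccinate synthase, at 67.9, 302 and 271 TPM. The gluconeogenic Pck1 was at 131, 303 and 202 TPM and G6pc at 27.8, 97.6 and 116 TPM.

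**Figure D2:**
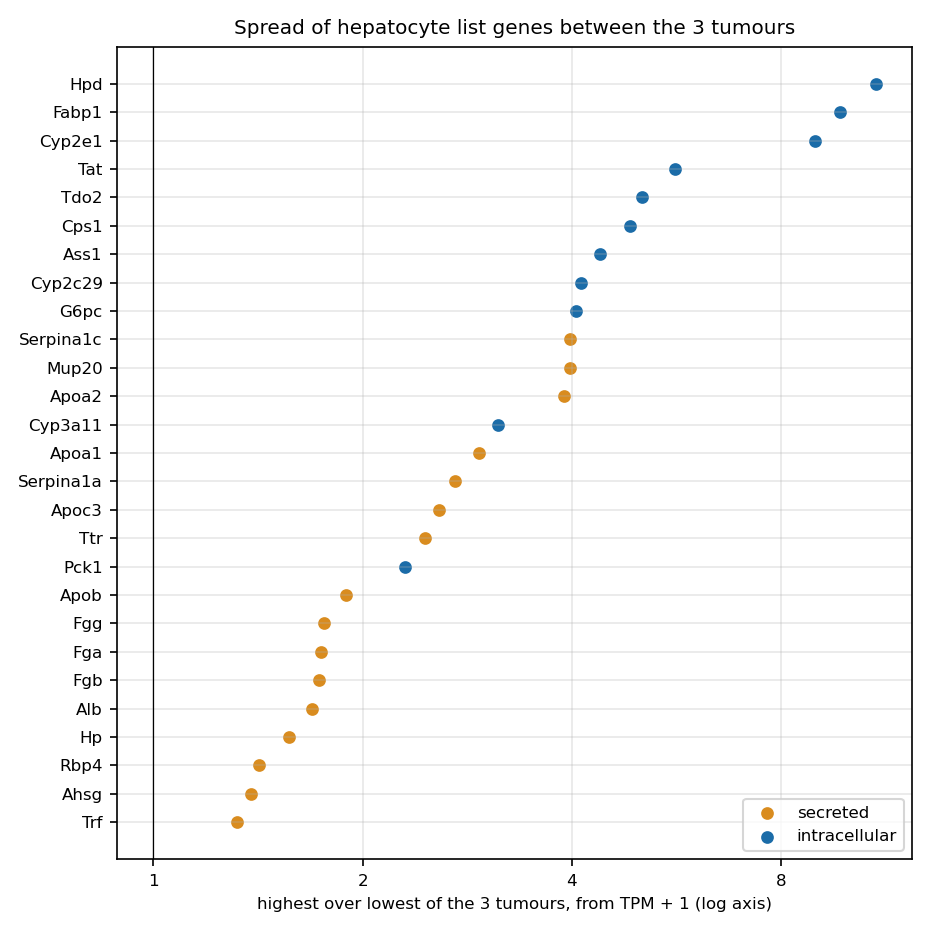
Ratio of the highest to the lowest of the 3 tumours, from TPM + 1 on a log axis, for 27 of the 28 hepatocyte genes, coloured by whether the protein is secreted. Among those drawn, Trf has the smallest ratio, at 1.32, and Hpd the largest, at 10.9.

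Transcription factors that maintain the hepatocyte state were all detected, and their median standard deviation of log2 was 0.47, between that of the hepatocyte list and that of all genes. The 12 factors made up 0.0394%, 0.0465% and 0.0557% of the transcripts, and 4 had a ratio of 2 or more (3 after median-of-ratios scaling), against 13.6% of all genes. Of the 12, 9 were lowest in replicate 1 and 9 were highest in replicate 3 (9 and 7 after that scaling). The shares of all genes were 35.1% and 47.0% (34.8% and 30.5% after that scaling). Hnf4a, a nuclear receptor of hepatocyte identity, was at 114, 109 and 141 TPM and lowest in replicate 2. Foxa2, a forkhead factor of endoderm, was at 100.01, 72.7 and 68.6 TPM and was highest in replicate 1. Cebpa, a factor of mature hepatocytes, was at 95.2, 156 and 192 TPM, Ppara, the receptor for fatty acids, at 3.18, 8.55 and 12.998 TPM and Onecut1 at 1.17, 2.55 and 7.85 TPM. For these last 3 genes replicate 1 was the lowest tumour and replicate 3 the highest.

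Promoter sequence of the hepatocyte genes was also described. The motif is one of liver promoters and the list one of liver genes, so its share does not bear on the order of tumours. RefSeq promoters on GRCm38.p6, covering 250 bases before to 50 after the start, were matched for 21 of the 28 genes. The letters GTTAAT, a motif core known from liver promoters, were searched on both strands of the 250 bases before the start only. They were found for 8 of the 21 genes (38.1%). This compares with 7.49% of all 27025 genes with a promoter and 5.33% of those with a mean of at least 1 TPM. A gene with several promoters was counted if any of them matched. The letters were found for 3 of 11 hepatocyte transcription factor genes and 0 of 12 acute phase genes of the liver. A match is a description of the letters and not a binding site. The 4 examples below span a secreted carrier, a clotting protein, a protease inhibitor with a near-identical neighbour, and a lipid-binding protein of the cell interior. Capitals mark the match, read as ATTAAC where it lies on the opposite strand.
Alb: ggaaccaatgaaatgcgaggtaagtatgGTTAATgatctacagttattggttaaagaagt
Fgb: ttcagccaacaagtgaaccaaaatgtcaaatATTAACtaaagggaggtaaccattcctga
Serpina1a: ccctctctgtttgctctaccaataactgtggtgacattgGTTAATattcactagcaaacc
Fabp1: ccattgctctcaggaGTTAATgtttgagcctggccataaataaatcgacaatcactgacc
They lie at chr5:90460810-90460869 on the plus strand, chr3:83049864-83049923 on the minus strand, chr12:103863620-103863679 on the minus strand and chr6:71199757-71199816 on the plus strand. The Alb, Fgb and Serpina1a matches begin 32, 29 and 21 bases before the RefSeq start, and the Fabp1 match 107 bases before it. For Alb the RefSeq start differs from the gene start given above. Fgb, the fibrinogen beta chain, was at 706, 1223 and 1203 TPM and Serpina1a at 280.2, 661 and 762 TPM.

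Epithelial genes of the tumour were led by keratins of simple epithelium. The bile duct and progenitor list made up 2.54%, 1.88% and 1.86% of the transcripts, and 15 of its 16 genes reached 1 TPM. Spp1 and the 3 keratins described next supplied most of that share. Krt8 was at 5122, 2972 and 2775 TPM, its partner Krt18 at 3973, 2532 and 2319 TPM, and the ductal keratin Krt19 (chromosome 11, 100140810 to 100148665) at 4477, 2882 and 2247 TPM. All 3 keratins were highest in replicate 1. Cd24a, a surface glycoprotein of progenitors, was at 529, 456 and 385 TPM and Sox9, a factor of ductal cells, at 60.5, 23.7 and 34.1 TPM. Other ductal genes were scarce: the adhesion molecule Epcam was at 4.53, 14.6 and 19.6 TPM, Krt7 at 3.25, 3.50 and 5.41 TPM and the stem cell marker Prom1 at 1.10, 2.30 and 3.75 TPM. Epcam ran opposite to the abundant keratins, lowest in replicate 1 and highest in replicate 3, and the ratio of Krt19 to Epcam was 989, 198 and 114. The list held genes of opposite order, with 8 of 15 at a ratio of 2 or more (9 after median-of-ratios scaling), against 13.6% of all genes.

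Junction and mesenchymal genes were present side by side. Cdh1, the epithelial cadherin, was at 154, 105 and 125 TPM and the junctional adhesion molecule F11r at 226, 216 and 234 TPM, while the epithelial splicing and transcription factors Esrp1, Grhl2 and Ovol1 were under 1 TPM on average. Vimentin (Vim), the intermediate filament of mesenchymal cells, was at 3471, 2833 and 2584 TPM. Fibronectin (Fn1) was at 551, 446 and 790.3 TPM, the receptor kinase Axl at 444, 472 and 606 TPM and the neural cadherin Cdh2 at 27.5, 32.9 and 44.0 TPM. Vimentin was highest in replicate 1, and the other 3 were highest in replicate 3. The regulators of mesenchymal transition were all at or under 20 TPM, with Zeb1 at 15.5, 12.3 and 19.2 TPM, Snai1 at 6.98, 12.3 and 9.15 TPM and Twist1 at 3.02, 4.91 and 1.54 TPM. S100a4, a calcium-binding protein of mesenchymal cells, was at 10.8, 7.98 and 7.42 TPM. Over the 14 genes of this list the median standard deviation of log2 was 0.23, close to that of all genes, and 1 gene, Twist1, had a ratio of 2 or more, against 13.6% of all genes.

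Fetal liver genes differed among themselves. Hmga2, a chromatin protein of embryonic and tumour cells, was at 249, 121 and 147 TPM, highest in replicate 1. The fetal albumin relative Afp was at 19.3, 17.4 and 16.5 TPM and the RNA-binding protein Igf2bp1 at 18.7, 14.2 and 21.3 TPM, with the tumours close together. The imprinted transcript H19 was at 4.56, 10.1 and 5.24 TPM. Gpc3, a surface proteoglycan of many human liver cancers, was at 1.13, 0.836 and 0.467 TPM, Dlk1 at 0, 0.132 and 0.0202 TPM, and no reads were listed for the fetal growth factor Igf2 in any tumour. With 3 reads on 1 kb taken as the floor, which covers counting error only, a gene of that length could have gone unseen at up to 0.295, 0.2498 and 0.342 TPM.

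Genes of the Ras and p53 pathways were all above 1 TPM. Cdkn2a, the locus of a pair of tumour suppressors, was at 426, 345 and 423 TPM, and Trp53, the gene of p53, at 101, 70.5 and 68.7 TPM. Trp53 reads do not tell host cells from tumour cells. Hras was at 44.5, 47.1 and 49.8 TPM, beside Nras at 120.3, 116 and 132 TPM. The feedback phosphatases of the Ras pathway differed by tumour, with Dusp4 at 424, 169 and 180.1 TPM and Dusp6 at 296, 147 and 164 TPM, and the inhibitor Spry4 was at 42.5, 15.1 and 16.8 TPM. The cell cycle inhibitor Cdkn1a was at 143, 77.2 and 57.7 TPM. These 4 were highest in replicate 1. In the whole list 13 of 17 genes were highest there (12 when scaled without mitochondrial genes), against 35.3% of all genes. A ratio of 2 or more was reached by 5 of the 17 (4 after median-of-ratios scaling), against 13.6% of all genes. The median deviation of the list in replicate 1 was 0.22 on the log2 scale.

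Cell cycle genes were even across the tumours. The 20 genes made up 0.147%, 0.127% and 0.144% of the transcripts, none had a ratio of 2 or more against 13.6% of all genes, and their median standard deviation of log2 was 0.14. Pcna, the clamp of DNA polymerase, was at 189, 217 and 221 TPM, the topoisomerase Top2a at 106, 90.3 and 115 TPM and the proliferation marker Mki67 at 53.01, 36.3 and 51.6 TPM. Rrm2, a subunit of ribonucleotide reductase, spread most of the 20, at 207, 115 and 114 TPM. Replicate 2 was the lowest tumour for 16 of the 20 genes, and for 11 of 20 after median-of-ratios scaling. The shares of all genes were 45.2% and 31.6%. The list's median deviation in replicate 2 was -0.14, and -0.06 after median-of-ratios scaling, when that of all genes was -0.06 and 0.01.

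Glycolytic and hypoxia genes were abundant and were highest in replicate 1 for 18 of 20 genes, against 35.3% of all genes. They made up 2.20%, 1.71% and 1.496% of the transcripts. Gapdh, the triose phosphate dehydrogenase, was at 4948, 3819 and 3236 TPM, Pgk1 at 3668, 3464 and 2684 TPM, the pyruvate kinase Pkm at 2846, 2256 and 2074 TPM and lactate dehydrogenase Ldha at 2559, 2003 and 1764 TPM. Vegfa, the angiogenic growth factor, was at 722, 458 and 449 TPM, the oxygen-sensing hydroxylase Egln3 at 853, 487 and 421 TPM and the glucose transporter Slc2a1 at 439, 277 and 247 TPM. The peptide hormone Adm showed the widest spread, at 67.9, 24.6 and 14.4 TPM, with replicate 1 above both others. The exceptions were Car9, the carbonic anhydrase of hypoxic cells, at 52.9, 57.6 and 52.1 TPM, and the lactate exporter Slc16a3 at 29.1, 36.2 and 31.2 TPM, both highest in replicate 2. The ratio of 2 or more was reached by 2 of the 20, close to the 13.6% of all genes.

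The translation and respiration genes had opposite orders of tumours. Cytosolic ribosomal protein genes took 12.3%, 10.9% and 8.40% of the transcripts. Of 81 genes above 1 TPM 77 were highest in replicate 1 and 79 lowest in replicate 3 (70 and 80 after median-of-ratios scaling). The shares of all genes were 35.3% and 19.7% (38.8% and 33.5% after that scaling). Rplp1, a stalk protein of the ribosome, was at 9688, 8733 and 6862 TPM and Rplp0 at 5972, 4823 and 4042 TPM. The mitochondrially encoded protein genes took 2.48%, 3.51% and 3.85%. All 12 above 1 TPM were lowest in replicate 1, against 35.1% of all genes. mt-Cytb, cytochrome b, was at 4982, 6529 and 7449 TPM and mt-Nd1, a subunit of respiratory complex I, at 2854, 4569 and 4924 TPM. Levels within the mitochondrial genome were uneven: against the level of mt-Co1 given above, mt-Co2 was listed at 22.4, 38.6 and 25.7 TPM and mt-Atp6 at 19.8, 37.9 and 30.7 TPM. Ribosomal protein and mitochondrial genes have many near-identical copies in the genome, and how reads with several matches were counted was not given, so single levels in both families are uncertain.

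**Figure D3:**
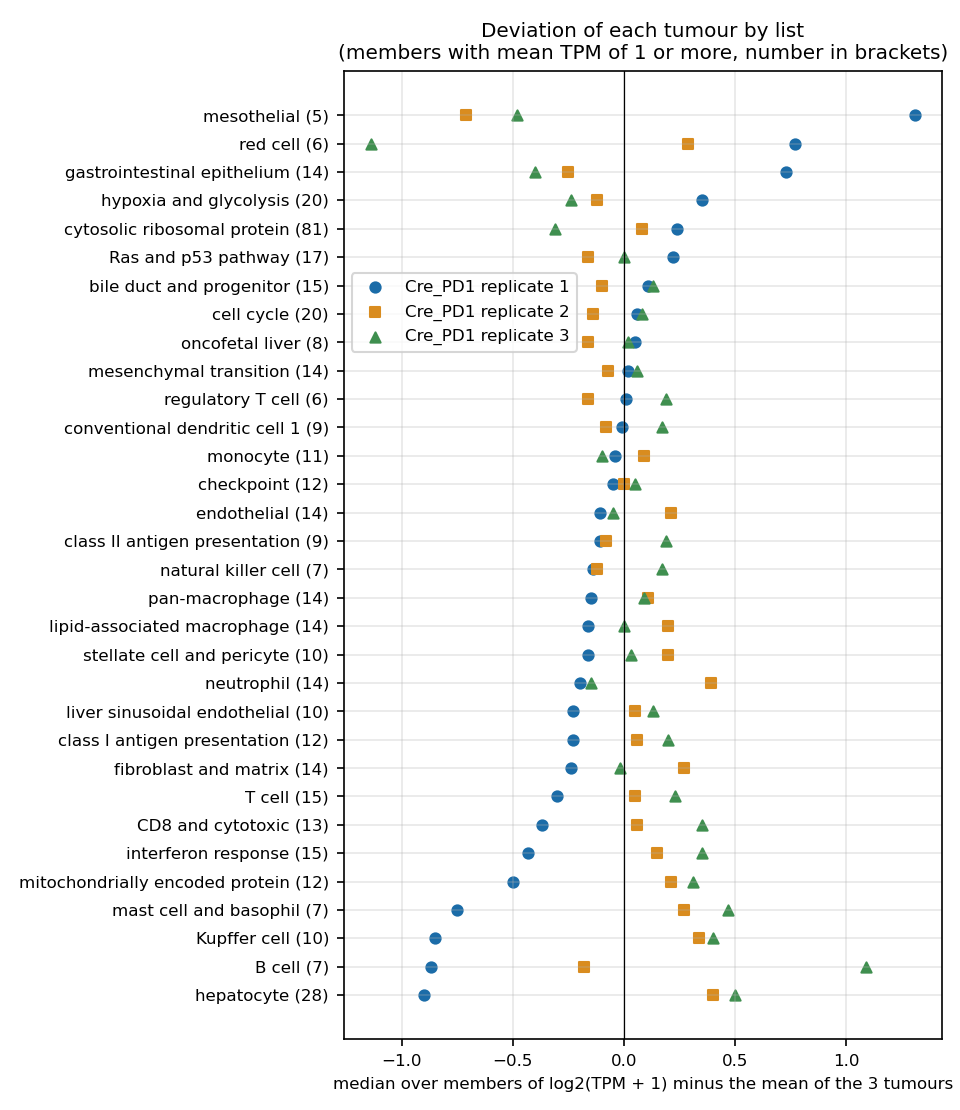
For each list drawn, the median over members with a mean of at least 1 TPM of log2(TPM + 1) minus the mean of the 3 tumours, 1 point per tumour, with the number of members in brackets and lists ordered by replicate 1. Of the lists drawn, the hepatocyte, B cell and Kupffer cell lists lie lowest and the mesothelial and red cell lists highest in replicate 1; the gastrointestinal epithelium list was chosen after its values were seen.

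Macrophage transcripts were abundant. The 14 pan-macrophage genes made up 0.306%, 0.393% and 0.397% of the transcripts and all exceeded 1 TPM. The complement gene C1qa was at 742, 948 and 950.1 TPM, C1qb at 744, 899 and 874 TPM and C1qc at 286, 357 and 358 TPM. Csf1r, the receptor for the macrophage growth factor, was at 82.0, 82.8 and 95.0 TPM and the endosomal Cd68 at 115, 138 and 122 TPM, both with tumours close together. Lyz2, lysozyme, was at 435, 765 and 899.8 TPM and lowest in replicate 1. One copy of Lyz2 or both is interrupted by the Cre insertion in LysM-Cre mice, so its level is not that of wild-type macrophages. The mannose receptor Mrc1 ran the other way, at 118, 79.2 and 69.5 TPM. Across the list 11 of 14 genes were lowest in replicate 1 (9 after median-of-ratios scaling), against 35.1% of all genes (34.8% after that scaling). Lyz2 alone had a ratio of 2 or more, which median-of-ratios scaling took below 2.

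Kupffer cell genes had a median standard deviation of log2 of 0.75, against 0.21 in the pan-macrophage list. All 10 were above 1 TPM and all 10 were lowest in replicate 1, where 6 of 10 lay at least 2 times below both others, against 3.96% of all genes. The list took 0.0299%, 0.0691% and 0.0667%. Cd5l, a secreted scavenger protein, was at 95.6, 248 and 214 TPM, the lectin Clec4f, a defining Kupffer cell gene in mice, at 29.1, 99.5 and 92.3 TPM, and the complement receptor Vsig4 at 16.2, 44.7 and 41.4 TPM. The phosphatidylserine receptor Timd4 was at 3.85, 9.39 and 12.2 TPM. Hepatocyte genes were lowest in that tumour too, and the part of normal liver tissue in the Kupffer values was not tested.

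Genes of lipid-associated macrophages included Trem2, the lipid-sensing receptor for which the other group of the study is named. Trem2 (ENSMUSG00000023992.14, chromosome 17, 48346401 to 48354147) was at 10.5, 16.5 and 14.9 TPM, a mean of 14.0 ± 3.09 (SD, n = 3). The list as a whole took 0.771%, 1.15% and 1.17%, most of it from Apoe, which hepatocytes also make. Lgals3, a lectin of macrophages and tumour epithelium, was at 1365, 1203 and 791 TPM. The cathepsin Ctsd was at 424, 670.3 and 563 TPM and Ctsb at 421, 522 and 459 TPM, the lipid droplet protein Plin2 at 364, 451 and 442 TPM and Gpnmb at 5.65, 8.27 and 3.80 TPM. Lgals3 was lowest in replicate 3, and Trem2, the cathepsins and Plin2 were lowest in replicate 1 and highest in replicate 2.

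Monocyte, granulocyte and dendritic cell genes were lower. Ccr2, the chemokine receptor of inflammatory monocytes, was at 5.73, 7.13 and 6.77 TPM and Ly6c2 at 3.34, 5.80 and 3.91 TPM. The monocyte list also holds Plac8 at 1488, 1228 and 928 TPM and Fn1, which are not specific to monocytes. Among neutrophil genes, the calgranulin S100a9 was at 75.6, 104 and 58.1 TPM and S100a8 at 29.1, 54.1 and 14.1 TPM, and Ly6g, the surface marker, was at 0.104, 0.177 and 0.242 TPM. Replicate 2 was highest for 9 of the 14 neutrophil genes above 1 TPM (10 after median-of-ratios scaling). The shares of all genes were 17.7% and 30.7%. The antimicrobial granule gene Ngp was at 3.94, 15.3 and 3.17 TPM and Camp at 2.08, 11.97 and 3.46 TPM. Of the receptors of cross-presenting dendritic cells, Clec9a was at 2.72, 2.83 and 3.50 TPM and Xcr1 at 0.928, 0.916 and 1.23 TPM. Ccr7, which guides migratory dendritic cells, was at 5.97, 6.74 and 8.77 TPM. All 8 genes of that list were highest in replicate 3 (7 after median-of-ratios scaling), against 47.0% of all genes (30.5% after that scaling). None of the 8 had a ratio of 2 or more, against 13.6% of all genes. Mast cell proteases were scarce, with Tpsb2 at 2.53, 7.84 and 11.7 TPM and Mcpt4 at 2.57, 7.97 and 9.78 TPM. All 7 mast cell and basophil genes above 1 TPM were lowest in replicate 1, against 35.1% of all genes. The plasmacytoid list rested on Bst2 at 655, 1021 and 970.4 TPM, an interferon-induced gene of many cells, while its defining gene Siglech was at 0.552, 0.837 and 1.18 TPM. Il5ra, the interleukin-5 receptor of eosinophils, was at 106, 51.6 and 35.7 TPM, whereas the eosinophil genes Epx and Ccr3 were under 1 TPM in each tumour.

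T cell transcripts were detected in each tumour and all 15 were lowest in replicate 1, against 35.1% of all genes. The list made up 0.0142%, 0.0194% and 0.0235% of the transcripts. Cd3e, a chain of the T cell receptor complex, was at 4.65, 5.25 and 8.64 TPM and the receptor constant region Trac at 26.4, 38.0 and 51.7 TPM. Replicate 3 was highest for 11 of the 15 genes, and for 9 after median-of-ratios scaling. The shares of all genes were 47.0% and 30.5%. The sizes were moderate: 1 of 15, Cd2 at 6.67, 8.47 and 14.7 TPM, had a ratio of 2 or more, and none after that scaling.

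Cytotoxic genes followed the same order of tumours for most members, with 12 of 13 lowest in replicate 1, against 35.1% of all genes. A ratio of 2 or more was reached by 1 of 13, against 13.6% of all genes. Cd8a was at 13.8, 16.7 and 23.3 TPM and Cd4 at 4.27, 5.37 and 10.8 TPM, and the ratio of Cd8a to Cd4 was 3.22, 3.12 and 2.15. Gzmb, a protease of cytotoxic granules, was at 30.5, 51.0 and 57.8 TPM, perforin (Prf1) at 7.80, 11.3 and 16.03 TPM and the chemokine Ccl5 at 84.9, 147 and 121 TPM. Ifng, the gene of interferon gamma, was at 1.44, 4.37 and 6.70 TPM and had the widest spread of the list. Foxp3, the factor that defines regulatory T cells, was at 1.01, 0.346 and 0.897 TPM and Il2ra at 0.620, 0.991 and 0.959 TPM, whereas Tnfrsf18, which activated T cells share, was at 26.1, 14.7 and 23.1 TPM. Natural killer cell genes were low, with Klrd1 at 15.9, 17.7 and 25.6 TPM and the defining receptor Ncr1 at 0, 1.03 and 1.63 TPM.

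None of the 12 checkpoint genes had a ratio of 2 or more, against 13.6% of all genes. Pdcd1 (chromosome 1, starting at 94038305), the gene of the receptor that the antibody binds, was at 16.8, 19.5 and 21.8 TPM. Its ligand Cd274 was at 40.3, 41.6 and 40.9 TPM, nearly equal in the 3 tumours, and the other ligand Pdcd1lg2 was at 10.7, 12.9 and 15.6 TPM. The ratio of Cd274 to Pdcd1 was 2.41, 2.13 and 1.87. Havcr2 was at 29.7, 28.7 and 28.7 TPM, Tigit at 22.5, 24.5 and 24.3 TPM, Lag3 at 19.8, 22.5 and 33.4 TPM and Ctla4 at 8.10, 9.04 and 7.30 TPM. Lag3 was highest in replicate 3. These genes are receptors that restrain T cells and, for Havcr2, are also found on myeloid cells. RNA level does not show whether the antibody occupies its receptor.

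B cell genes separated replicate 3 from the other tumours. All 7 genes above 1 TPM were highest in replicate 3, and in 5 of 7 that tumour lay at least 2 times above both others, against 1.39% of all genes. The list took 0.00199%, 0.00316% and 0.0107%. Ighm, the IgM heavy chain, was at 12.8, 17.6 and 62.1 TPM and the receptor chain Cd79a at 2.16, 4.29 and 11.7 TPM. Ms4a1, which encodes CD20, was at 0.143, 0.135 and 1.29 TPM. Replicate 3 held the highest value of each, although levels were low. Of the 11 plasma cell genes above 1 TPM, 7 were highest in replicate 3 (4 after median-of-ratios scaling). Lowest in replicate 2 were 7 (5 after that scaling). The shares of all genes were 47.0% and 45.2% (30.5% and 31.6% after that scaling). The light chain Igkc was at 230.4, 140.4 and 258 TPM, Jchain at 11.9, 7.71 and 12.6 TPM and Ighg2c at 25.4, 12.4 and 13.3 TPM, each lowest in replicate 2. Sdc1, a marker of plasma cells and of epithelium, was at 492, 592 and 732 TPM. Ccl21a, a chemokine of lymphatic vessels that guides lymphocytes, was at 0.678, 11.3 and 20.9 TPM; it has close copies in the genome and no exon length in the annotation used.

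Antigen presentation genes were abundant. Class I genes took 1.49%, 1.79% and 1.75%, with H2-K1 at 3294, 3633 and 3626 TPM and H2-D1 at 2427, 2739 and 2674 TPM, 2 similar genes whose reads may be shared. The peptide transporter Tap1 was at 122, 139 and 172 TPM and the loading factor Tapbp at 176, 245 and 327 TPM. Replicate 1 was lowest for 11 of 12 genes, against 35.1% of all genes, and none had a ratio of 2 or more, against 13.6%. Class II genes took 0.401%, 0.427% and 0.520%, led by the invariant chain Cd74 at 2155, 2328 and 3013 TPM and H2-Ab1 at 600.5, 669 and 740.5 TPM. All 9 were highest in replicate 3 (7 after median-of-ratios scaling), against 47.0% of all genes (30.5% after that scaling). A ratio of 2 or more was reached by 1 of the 9 class II genes. Their transactivator Ciita was at 11.97, 9.11 and 17.4 TPM.

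Interferon response genes were lowest in replicate 1 for 12 of 15 genes, against 35.1% of all genes. They took 0.113%, 0.180% and 0.207% of the transcripts, and 4 of 15 had a ratio of 2 or more, against 13.6% of all genes. The guanylate-binding protein Gbp2 was at 376, 667 and 725 TPM and the immunity-related GTPase Iigp1 at 111, 186 and 260.4 TPM. Of the chemokines that attract T cells, Cxcl9 was at 146, 186 and 229.7 TPM and Cxcl10 at 35.5, 61.5 and 91.8 TPM. Rsad2 at 5.58, 6.11 and 4.40 TPM and Oas1a at 21.5, 18.2 and 23.8 TPM did not follow. The interferon-stimulated response element was searched on either strand as GAAA followed by any 2 bases and GAAA. It was found for 8 of 11 list genes with a matched RefSeq promoter (72.7%), against 3.46% of all 27025 genes with a promoter. The motif is one of interferon-induced genes and the list one of such genes, so its share does not bear on the order of tumours. Overlapping matches were counted as separate. The 3 examples show a single match, a run of overlapping matches, and a match on the opposite strand (TTTC, any 2 bases, TTTC), in capitals.
Cxcl10: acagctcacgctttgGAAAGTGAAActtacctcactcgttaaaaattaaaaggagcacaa
Isg15: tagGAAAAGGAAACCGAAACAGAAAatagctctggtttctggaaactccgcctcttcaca
Ifit3: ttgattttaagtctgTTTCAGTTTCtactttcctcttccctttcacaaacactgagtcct
Their positions in GRCm38.p6 are chr5:92349058-92349117 on the minus strand, chr4:156200840-156200899 on the minus strand and chr19:34583392-34583451 on the plus strand. Isg15, a ubiquitin-like modifier, was at 63.8, 107 and 94.0 TPM and Ifit3, another interferon-induced gene, at 36.4, 65.0 and 48.5 TPM. Both were lowest in replicate 1 and highest in replicate 2, while Cxcl10 was highest in replicate 3.

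Secreted cytokine and growth factor genes made up 0.192%, 0.144% and 0.144% of the transcripts. Of the 18 above 1 TPM, 7 had a highest over lowest ratio of 2 or more (8 after median-of-ratios scaling), against 13.6% of all genes. Apart from Vegfa, given above, the alarmin Il33 was at 559, 400.4 and 349 TPM and Tgfb1, a regulator of matrix and immune cells, at 165, 124 and 158 TPM. Areg, a ligand of the epidermal growth factor receptor, was at 109, 52.3 and 29.4 TPM and Pdgfb, which attracts pericytes, at 27.4, 37.5 and 67.1 TPM. Il33 and Areg were highest in replicate 1 and lowest in replicate 3, and Pdgfb had the reverse order, also after median-of-ratios scaling. Of the macrophage growth factors, Csf1 was at 20.4, 28.2 and 35.1 TPM and Il34 at 69.3, 53.3 and 58.9 TPM, and the monocyte chemokine Ccl2 was at 25.8, 50.9 and 50.7 TPM. Il6 was at 0.891, 0.789 and 0.517 TPM. Of the platelet list, the chemokine Pf4, which macrophages also express, was at 68.2, 149 and 76.1 TPM and highest in replicate 2, and the platelet receptor chain Itga2b was at 5.18, 6.41 and 4.79 TPM.

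All 14 endothelial genes were above 1 TPM and none had a ratio of 2 or more, against 13.6% of all genes. Cdh5, the cadherin of blood vessels, was at 25.9, 25.8 and 24.7 TPM, Pecam1 at 17.9, 20.6 and 18.2 TPM and the receptor Kdr at 5.04, 7.82 and 8.69 TPM. Of the sinusoidal endothelium of the liver, the lectin Clec4g was at 12.2, 29.0 and 25.2 TPM and the hyaluronan receptor Stab2 at 7.77, 9.11 and 10.4 TPM. Of the 10 sinusoidal genes 2 had a ratio of 2 or more, Clec4g and the secreted Oit3 (6.28, 12.2 and 16.04 TPM), both lowest in replicate 1. Of the 5 lymphatic endothelial genes above 1 TPM, Ccl21a, given above, had a ratio of 2 or more. All 5 were lowest in replicate 1 (4 after median-of-ratios scaling), against 35.1% of all genes (34.8% after that scaling). The lymphatic factor Prox1, which hepatocytes also express, was at 3.93, 5.47 and 6.85 TPM.

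Fibroblast and matrix genes took 0.153%, 0.219% and 0.183%. Replicate 2 was highest for 9 of 14 genes above 1 TPM (11 after median-of-ratios scaling). The shares of all genes were 17.7% and 30.7%. The collagen Col1a1 was at 271, 426 and 298 TPM and Col3a1 at 250.2, 385 and 210.4 TPM, and the matricellular Sparc at 495, 647 and 574 TPM. Decorin (Dcn) was at 38.4, 80.00 and 44.9 TPM, smooth muscle actin (Acta2) at 66.4, 129 and 130.4 TPM and periostin (Postn) at 11.4, 32.8 and 29.7 TPM. Collagens and decorin peaked in replicate 2, and periostin was lowest in replicate 1. The receptor Pdgfra was at 3.57, 3.47 and 3.26 TPM and the pericyte receptor Pdgfrb at 13.8, 16.4 and 13.5 TPM. The retinol acyltransferase Lrat of stellate cells was at 4.54, 5.23 and 3.30 TPM. Fap was at 1.09, 0.779 and 0.887 TPM, below 1 TPM on average.

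Other tissues left small traces. Skeletal muscle and pancreas acinar genes were mostly absent, with 2 of 6 and 1 of 6 at 1 TPM or more. The pancreatic enzymes Amy2a5, Pnlip and Prss1 and the fat cell genes Lep and Plin1 were listed at 0. Of the fat cell genes, however, 2 of 6 were at 1 TPM or more, the highest at a mean of 17.2 TPM. Of the Schwann and neural genes 3 of 6 were, the highest at a mean of 54.9 TPM. The mesothelial list was highest in replicate 1 for all 5 genes above 1 TPM, against 35.3% of all genes. It comprised Msln at 816, 665 and 503 TPM, which tumour epithelium can also express, and scarce genes such as Upk3b at 4.57, 0.283 and 0.291 TPM and Upk1b at 5.23, 0.199 and 0.928 TPM. For Upk3b and Upk1b replicate 1 lay far above both others. Red cell genes took 0.452%, 0.342% and 0.114%: of the globins, each with a close copy, Hbb-bs was at 2768, 2165 and 672 TPM and Hba-a1 at 1381, 926 and 383 TPM, and the heme enzyme Alas2 at 45.5, 39.6 and 25.1 TPM. All 6 red cell genes above 1 TPM were lowest in replicate 3, in 4 of 6 at least 2 times below both others, against 0.72% of all genes. The share of blood in each sample was not measured by other means.

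**Figure D4:**
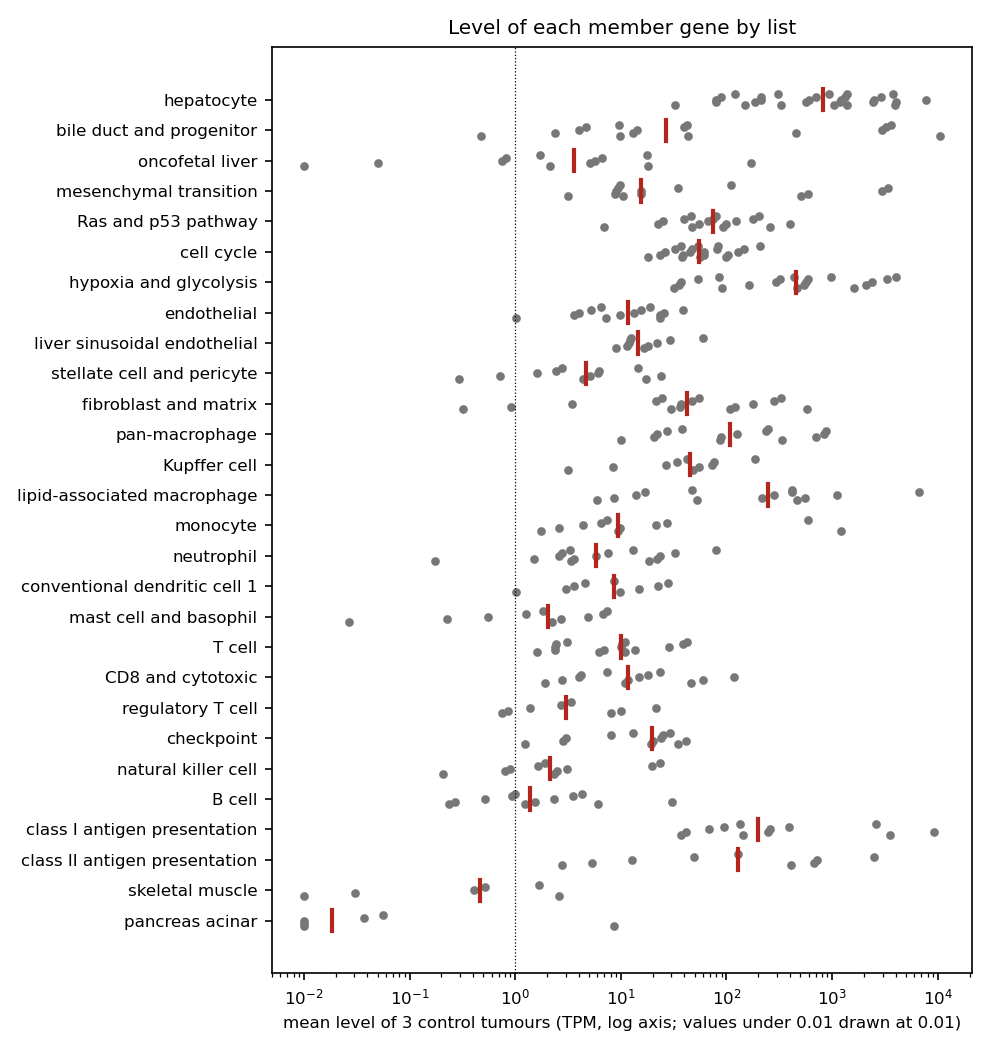
Mean level over the 3 tumours of each member gene in TPM on a log axis, 1 point per gene, with a red bar at the median of the list and a dotted line at 1 TPM. Hepatocyte genes have a median of 819 TPM, pan-macrophage genes 107 TPM, T cell genes 9.94 TPM and B cell genes 1.40 TPM.

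Across all 16534 genes with a mean of at least 1 TPM, replicates 2 and 3 were most alike. Pearson's r of log2(TPM + 1) across genes was 0.96 for replicates 1 and 2, 0.95 for 1 and 3, and 0.97 for 2 and 3; genes are not independent replicates, and these values are a description. A ratio of 2 or more was reached by 2245 genes (13.6%) over the 3 tumours. Replicate 1 lay at least 2 times below both others in 654 genes (3.96%) and above in 210 (1.27%). For replicate 2 these were 189 genes (1.14%) and 55 (0.333%), and for replicate 3 119 genes (0.72%) and 229 (1.39%). Without replicate 1, 802 genes had a ratio of 2 or more; without replicate 2 there were 1658 and without replicate 3 1343.

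Read counting gave less spread than was seen between tumours. The median standard deviation of log2(TPM + 1) was 0.22, against 0.06 from counting alone. From 1 to 10 TPM these were 0.28 and 0.18 in the median, and from 100 to 1000 TPM 0.16 and 0.02. Of 15926 genes with recovered reads, 2703 (16.97%) had a spread below that of counting, so the order of the least variable genes carries no meaning. The counting spread was computed without the + 1, which shrinks the observed spread at low levels. Near 1 TPM the measures are therefore not alike, and that count is too high. Among them were Pmpcb, a mitochondrial peptidase subunit at 47.6, 47.7 and 47.7 TPM, and the vesicle GTPase Arf5 at 192, 191 and 191 TPM.

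The most variable genes at 10 TPM or more were largely of mature hepatocytes and lowest in replicate 1. Hamp, the iron hormone hepcidin, was at 29.5, 708 and 1153 TPM, the methyltransferase Inmt at 0.922, 79.1 and 91.4 TPM and the carbonic anhydrase Car3 at 1.92, 76.6 and 158 TPM. The sulfotransferase Sult2a8 was at 2.82, 65.5 and 124 TPM, the carboxylesterase Ces3b at 4.10, 71.9 and 159 TPM, the steroid enzyme Hsd3b5 at 2.22, 23.4 and 59.4 TPM and the bile acid enzyme Cyp8b1 at 5.09, 32.1 and 85.9 TPM. Of the 15 genes with the largest standard deviation, 5 were Mup genes, and Hpd and Ccl21a are given above. Mir1957a, a microRNA gene of 66 bases, ran the other way at 47.7, 11.4 and 0 TPM, and a value on so few bases is coarse.

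**Figure D5:**
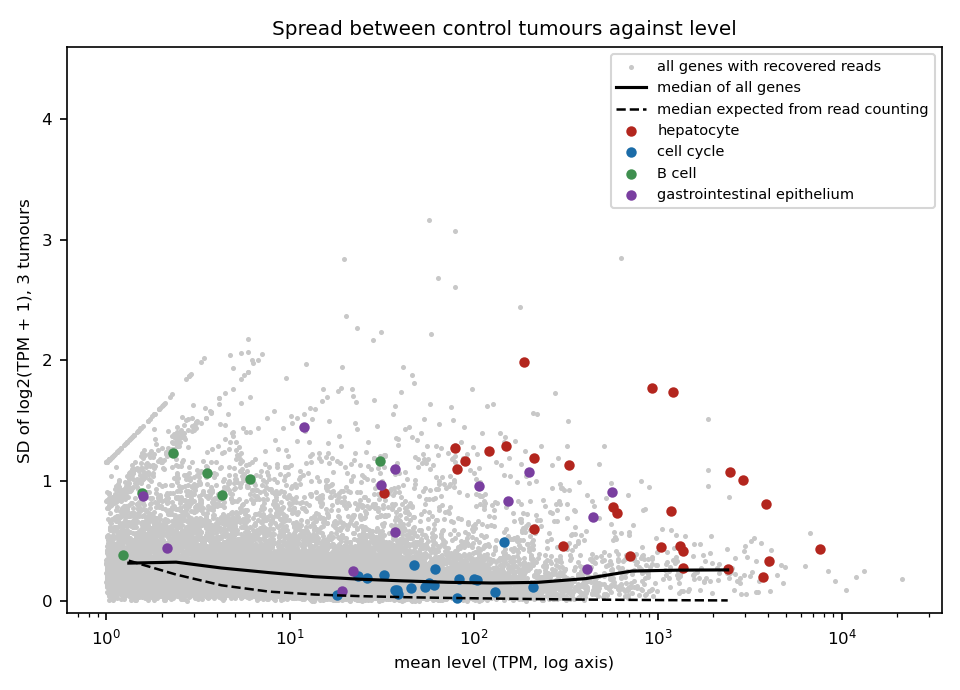
Standard deviation of log2(TPM + 1) over the 3 tumours against mean TPM (log axis), 1 grey point per gene, with medians of all genes (solid) and of the spread from read counting (dashed, computed without the + 1), and 4 lists in colour. Most hepatocyte and B cell genes lie above the median line, whereas cell cycle genes have a median of 0.14; the gastrointestinal epithelium list was chosen after its values were seen.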

How the data were processed

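Polyadenylated RNA of 3 Cre_PD1 tumours was used, and the 3 tumours of the other group were not. Per the submitters' processing notes, reads were aligned with STAR 2.7.10a to mm10 and counted with featureCounts 2.0.3 of Subread. The values deposited by the authors, named as TPM, are a length-normalised read signal with column sums of 81624, 96409 and 70363. How reads with several matches, strand or overlapping genes were treated was not given in the sources used here. Each value times the exon length in GENCODE M21 (GRCm38), divided by 8.03, was a whole read number within 0.001 for 27162 of 27593 genes with a value and a length (98.4%); 53180 of the 55291 genes had a length.

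Each column was rescaled to 1000000. Spread was measured on log2(TPM + 1) among genes with a mean of at least 1 TPM, and a gene was counted as spread where its highest tumour was at least 2 times its lowest. A tumour was counted as apart where it lay at least 2 times above or below both others. With 1 group of 3, no test was made and no p-value is given; whether the spread is biological or technical cannot be told apart. Counting error was taken as Poisson in the recovered reads, which carry no molecular identifiers. The 44 gene lists held 511 genes. The lists and the tumours were chosen with earlier results of these data known. Genes were named by rule: the 25 most abundant, the 4 most abundant of each list and its defining genes under 1 TPM, the 15 most and 10 least variable at 10 TPM or more, and Trem2 and Pdcd1 with its ligands; other members of the lists were named after their values were seen. Some list members are counted in their lists but not reported by name here. The procedure was tested on simulated data. Alternatives were other pseudocounts, filters, thresholds and scalings, and leaving out each tumour. Python 3.11.15, numpy 2.4.6, pandas 2.3.3 and matplotlib 3.10.9 were used.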

Additional observations from a re-analysis of the deposited data

How the results depend on the processing

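No paired analysis was possible because 1 group was described and no groups were compared. Without rescaling, 8202 genes reached 1 in all 3 columns in place of 14880, where the columns sum to 81624, 96409 and 70363. Leaving out each tumour in turn gave 15181 to 15507 genes. The share of the 100 most abundant genes was 29.7% without mitochondrial genes and 19.5% by reads, and 30.5% to 31.7% without each tumour. Genes with a ratio of 2 or more numbered 1096 at a mean of 5 TPM or more, where fewer genes enter, and 802 to 1658 without each tumour. The median standard deviation of log2 was 0.24 and 0.23 with pseudocounts of 0.1 and 0.5, 0.20 with median-of-ratios scaling, 0.19 with no filter and 0.19 at 5 TPM or more, and 0.17 to 0.18 without each tumour. The hepatocyte share was 3.47% to 4.69% without each tumour. Of 245 other values of list shares, 147 left out 1 tumour. A mean of 3 values cannot then move by as much as their SD, so these 147 show nothing about stability. The other 98, from other scalings, moved by less than the spread between tumours. All 28 recounts of members apart, for the 7 lists where they were made, stayed within 1.5 times. Median-of-ratios factors were 1.002, 0.956 and 1.07, so list deviations near 0, as in the checkpoint, mesenchymal and oncofetal lists, can change sign. With 26747236 to 34264910 reads, genes under 1 TPM rest on few reads, and 3 tumours limit the precision of each mean.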

Other observations

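The gene groups here were chosen after their values were seen, and no claim rests on how they were picked. Genes of stomach and intestinal epithelium were abundant in these liver tumours. Krt20, an intestinal keratin, was at 988, 403 and 295 TPM and the intestinal cadherin Cdh17 at 712, 322 and 295 TPM. The gastric claudin Cldn18 was at 505, 368 and 361 TPM, the gastric annexin Anxa10 at 167, 107 and 44.5 TPM and the foregut and stem cell factor Sox2 at 264, 100.2 and 94.3 TPM. The intestinal master factor Cdx2 was at 55.7, 29.9 and 25.9 TPM and the brush border protein Vil1 at 73.4, 17.1 and 21.5 TPM. Each of these 7 was highest in replicate 1. The list of 22 genes took 0.326%, 0.151% and 0.135% of the transcripts, and 14 were at 1 TPM or more on average. Replicate 1 was highest for 11 of the 14 and replicate 3 for 3. In 6 of the 14 replicate 1 lay at least 2 times above both others, against 1.27% of all genes. In 2 of the 14 it lay at least 2 times below both, against 3.96% of all genes. With the list chosen after its values were seen, these shares are only a description. Mucins and gastrokines of mature glands were scarce: Muc2 was at 0.745, 0.689 and 0.8004 TPM, Muc5ac at 0.0549, 0 and 0.0318 TPM, and Gkn2 and Cdx1 were listed at 0. The trefoil peptide Tff3 ran opposite, at 2.19, 11.8 and 21.5 TPM.

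Among genes of stratified epithelium, the cornified envelope protein Sprr1a was at 2035, 2051 and 1670.2 TPM, and its partner involucrin (Ivl) at 97.5, 25.4 and 20.3 TPM. The basal cell factor Trp63 was listed at 0 in each tumour and the basal keratin Krt5 was at 0.0448, 0 and 0 TPM. Of 25 prolactin-family genes of the mouse placenta, 22 were under 1 TPM. The exceptions were Prl2c2 at 464, 299 and 93.2 TPM, its close copy Prl2c3 at 351, 275 and 66.4 TPM and Prl2c5 at 3.43, 3.18 and 0.969 TPM, all lowest in replicate 3.

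Acute phase genes of the liver were mostly highest in replicate 2. Of the near-identical serum amyloid genes, Saa1 was at 307, 914 and 354 TPM and Saa2 at 166, 547 and 173 TPM. The orosomucoid Orm1 was at 977, 1683 and 1011 TPM and Orm2 at 350.01, 688 and 201 TPM. Replicate 2 was highest for each of these 4. The list of 14 genes took 0.278%, 0.599% and 0.411%, with replicate 2 highest for 11 of 14 (13 after median-of-ratios scaling), against 17.7% of all genes (30.7% after that scaling). In the hepatocyte list replicate 2 was highest for 13 of 28 genes (19 after that scaling), and the difference between the lists was not tested. Replicate 1 was lowest for 9 of the 14 acute phase genes (7 after that scaling). Hepcidin (Hamp) was instead highest in replicate 3. All 11 major urinary protein genes above 1 TPM were lowest in replicate 1 and highest in replicate 3, with Mup3 at 425, 2084 and 3092 TPM and Mup7 at 13.04, 156 and 367 TPM, and reads may be shared among their near-identical copies.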
